A study of Mus musculus with 8 samples.

Results

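The 10 genes described here, S100a8, S100a9, Lcn2, Ngp, Mmp8, Mmp9, Retnlg, Cxcr2, Csf3r and G0s2, are known for their expression in mature neutrophils. They were chosen by symbol, and all 10 were found among the 51810 genes of the deposited count table. RNA was sequenced from CD11b-selected brain cells of wild-type mice aged 4 or 21 months, taken from white matter, the corpus callosum, or from grey matter. There were 4 groups of 2 libraries, namely 4-month white matter, 4-month grey matter, 21-month white matter and 21-month grey matter, and all carried the same genotype with no treatment named. In every group, myelin was removed on a Percoll gradient and cells were then drawn on magnetic columns with beads against CD11b, a surface integrin that microglia share with neutrophils and monocytes. The selection itself therefore does not separate neutrophils from microglia. The tissue labels set white against grey matter, although the region label reads corpus callosum for the grey matter samples too. Whether both libraries of a group stem from different animals is not stated, so the p-values reflect library-to-library spread that may be technical.

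Neutrophils are short-lived granulocytes of the blood that form in the bone marrow, where they fill primary, then specific, then gelatinase granules with antimicrobial proteins and proteases. The healthy brain holds few of them, mostly within vessels and at its borders, and CXCR2 and the receptor for granulocyte colony-stimulating factor govern their release from the marrow. S100A8 and S100A9 form calprotectin, which makes up a large share of the neutrophil cytosol.

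Library totals ran from 3273258 to 6315782 counts. Levels are given as CPM, read counts scaled to library size after TMM correction, and the 2 libraries of a group are called the first and the second by their labelled number. A single library, the first of 4-month white matter, differed from the remaining 7 in 3 respects. The sum of its 8 oligodendrocyte markers was 58492 CPM, beside 191.2 to 737 CPM in the others, and that of its 12 homeostatic microglia markers 3485 CPM, against 13625 to 20959 CPM. The transcripts CT010467.1 and AY036118 together took 38.8% of its counts, against 6.78% to 20.7% elsewhere. Results that rest on it are given with and without it. The homeostatic microglia markers, among them P2ry12, Tmem119 and Cx3cr1, were read in every library, with none of the 12 at 0 in both libraries of a group.

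Of these genes, 9 stood several times higher in grey than in white matter at both ages, and 1, Csf3r, did not follow them. S100a9, a calcium-binding protein and the larger chain of calprotectin, was read at 659 and 594 CPM in 21-month grey matter and at 108.8 and 32.0 CPM in 21-month white matter. At 4 months it was read at 1335 and 629 CPM in grey matter and at 90.5 and 167.8 CPM in white matter. The white and grey matter libraries did not overlap at either age, and the first 4-month grey matter library was the highest of all 8. S100a8, its partner chain, stood at 218.9 and 201.2 CPM in 21-month grey matter, against 38.8 and 7.70 CPM in 21-month white matter. At 4 months S100a8 was read at 539 and 221.4 CPM in grey matter, against 36.7 and 77.3 CPM in white matter. S100a8 thus showed the same order of regions as S100a9. In bulk RNA such as this, fewer cells of a type and less RNA per cell cannot be told apart.

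The granule genes showed the same separation by region. Ngp, neutrophilic granule protein, a marker of specific granules, was read at 674 and 530.3 CPM in 21-month grey matter and at 75.0 and 9.68 CPM in 21-month white matter. At 4 months Ngp stood at 1175 and 575 CPM in grey matter and at 32.7 and 144.2 CPM in white matter. The 2 white matter libraries of each age therefore differed from each other several fold for this gene, more than the grey matter libraries did. Lcn2, lipocalin 2, a specific granule protein that binds bacterial iron carriers, was read at 249.6 and 208.2 CPM in 21-month grey matter and at 27.7 and 12.4 CPM in 21-month white matter. Its levels at 4 months were 522 and 209.7 CPM in grey matter and 18.5 and 49.2 CPM in white matter. The regions did not overlap for Lcn2 at either age.

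Mmp8 and Mmp9 encode 2 of the matrix-degrading enzymes stored by neutrophils, collagenase in specific granules and gelatinase B in gelatinase granules. Mmp8 was read at 67.3 and 53.3 CPM in 21-month grey matter, against 8.28 and 4.22 CPM in 21-month white matter. At 4 months it stood at 109.0 and 61.2 CPM in grey matter, against 9.45 and 16.8 CPM in white matter. The separation for Mmp9 was alike in form, with 53.7 and 42.7 CPM in 21-month grey matter and 8.51 and 4.72 CPM in 21-month white matter. For Mmp9 at 4 months, grey matter gave 90.5 and 44.1 CPM and white matter 6.90 and 10.03 CPM. Retnlg, resistin-like gamma, a secreted protein of mature mouse neutrophils, was read at 77.2 and 78.7 CPM in 21-month grey matter and at 12.8 and 3.23 CPM in 21-month white matter. Its 4-month levels were 150.3 and 99.3 CPM in grey matter and 7.995 and 21.1 CPM in white matter. Both enzymes and Retnlg were higher in every grey matter library than in every white matter library.

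The 250 bases upstream of the start of Ngp, Lcn2, Mmp8 and Csf3r are printed 5′ to 3′ in the direction of transcription, because the first 3 are granule genes whose levels varied together and Csf3r is the gene that did not follow them. They are from RefSeq on GRCm38.p6, whose table held 9 of the 10 genes, all but Mmp9. These positions belong to RefSeq only, since the authors' build is not given in the sources used here. Capitals mark matches, on either strand, to TTGCNNAA, a form of the C/EBP site, to GAGGAAGT, a form of the PU.1 site, or to the TATA box letters TATAAA.
Ngp, chr9:110419558-110419807, plus strand: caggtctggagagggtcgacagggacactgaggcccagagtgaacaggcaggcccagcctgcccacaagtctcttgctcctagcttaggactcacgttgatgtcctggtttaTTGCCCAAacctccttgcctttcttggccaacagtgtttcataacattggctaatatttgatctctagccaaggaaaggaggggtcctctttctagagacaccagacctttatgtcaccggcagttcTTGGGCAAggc
Lcn2, chr2:32387740-32387989, minus strand: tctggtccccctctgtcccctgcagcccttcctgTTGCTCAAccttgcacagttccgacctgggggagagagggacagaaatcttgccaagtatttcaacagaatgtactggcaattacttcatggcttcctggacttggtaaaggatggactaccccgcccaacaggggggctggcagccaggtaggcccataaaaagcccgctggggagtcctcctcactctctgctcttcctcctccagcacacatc
Mmp8, chr9:7558179-7558428, plus strand: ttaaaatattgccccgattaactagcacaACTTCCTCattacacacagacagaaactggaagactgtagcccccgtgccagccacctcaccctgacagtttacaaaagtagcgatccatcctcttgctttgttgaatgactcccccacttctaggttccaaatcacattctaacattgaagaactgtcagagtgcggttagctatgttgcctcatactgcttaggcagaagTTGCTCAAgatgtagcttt
Csf3r, chr4:126024409-126024658, plus strand: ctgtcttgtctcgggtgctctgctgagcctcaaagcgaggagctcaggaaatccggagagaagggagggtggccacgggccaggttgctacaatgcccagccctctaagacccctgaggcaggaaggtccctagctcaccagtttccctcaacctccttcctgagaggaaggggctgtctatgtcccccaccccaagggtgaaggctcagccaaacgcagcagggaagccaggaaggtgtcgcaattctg
The C/EBP form was found in 5 of the 9 windows, those of S100a9, Lcn2, Mmp8, Retnlg and Ngp, and in 9.56% of all 32851 promoters of the same length. Ngp held it at 138 and at 11 bases before the start and Mmp8 at 19 bases before it. The PU.1 form was in 2 of 9, those of S100a8 and Mmp8, against 2.44% of all promoters, and TATAAA in 1 of 9, that of S100a8, against 12.4%. The searched forms share no overlapping match in these windows. A match describes letters in the sequence and is not a measured binding site.

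Of the 2 receptors, Cxcr2 followed the granule genes and Csf3r did not. Cxcr2, the receptor for CXCL1, CXCL2 and related chemokines, was read at 99.2 and 109.7 CPM in 21-month grey matter, against 15.4 and 7.20 CPM in 21-month white matter. At 4 months it stood at 206.5 and 96.2 CPM in grey matter, against 25.1 and 27.6 CPM in white matter. Csf3r, the receptor for granulocyte colony-stimulating factor, which microglia are also known to express, was read at 652 and 721 CPM in 21-month grey matter and at 674 and 473 CPM in 21-month white matter. These libraries overlapped, so Csf3r gave no separation of the regions at 21 months. At 4 months Csf3r stood at 954 and 626 CPM in grey matter and at 157.4 and 550.1 CPM in white matter. The low value of 157.4 CPM came from the library with the high oligodendrocyte and low microglia markers.

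G0s2, an inhibitor of the triglyceride lipase ATGL that is abundant in mature neutrophils, was the gene with the fewest counts. It was read at 18.6 and 17.6 CPM in 21-month grey matter and at 0.946 and 1.24 CPM in 21-month white matter, where it rested on 4 and 5 counts. At 4 months it stood at 22.5 and 19.7 CPM in grey matter and at 4.36 and 4.77 CPM in white matter. The 2 libraries of each group lay close together, and the 21-month white matter libraries were below all others. All 10 genes passed the filter on low counts, which kept 16237 genes.

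**Figure D1:**
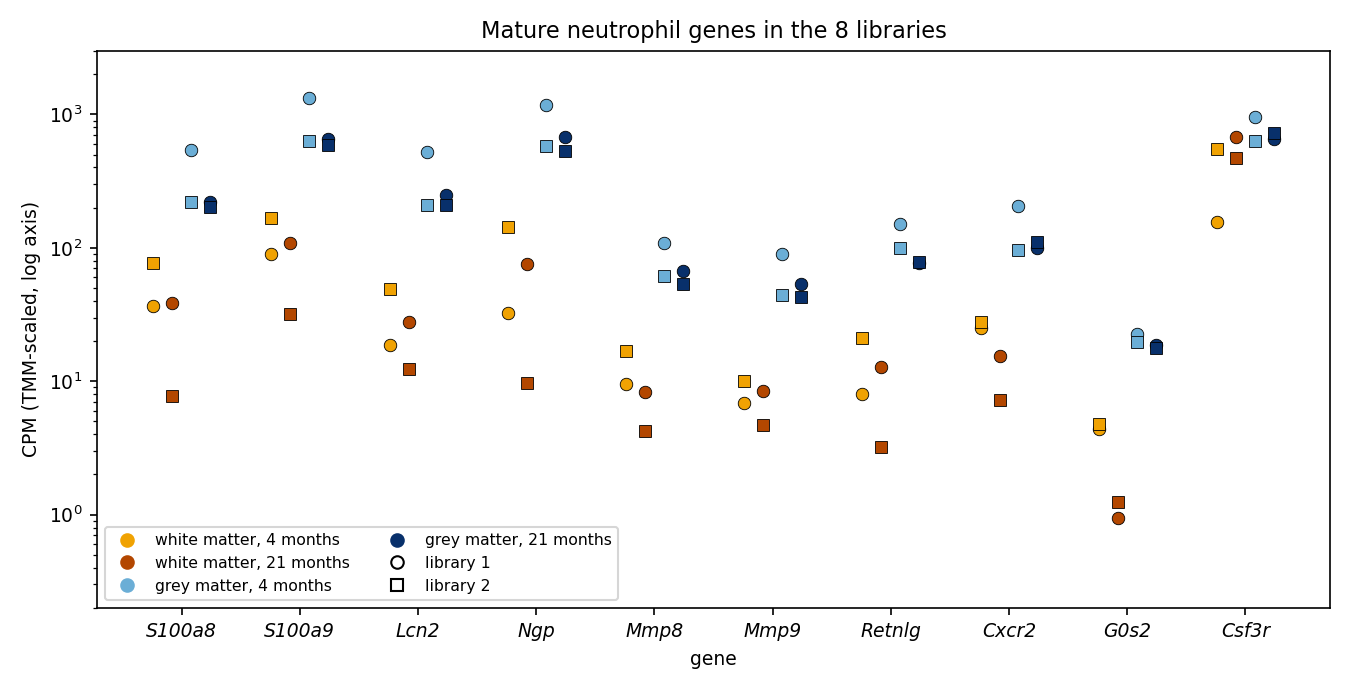
CPM of the 10 genes (logarithmic vertical axis) in each of the 8 libraries, coloured by group, with a circle for the first and a square for the second library of a group. For all genes but Csf3r the grey matter points lie above the white matter points at both ages, and the levels run from 0.946 CPM of G0s2 in 21-month white matter to 1335 CPM of S100a9 in 4-month grey matter.

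White matter was compared with grey matter at 21 months to ask how the RNA of old CD11b-selected cells differs by region. The fold change was below 0 for 10 of 10 genes, as for 48.3% of all genes tested, with a median of -3.23 on the log2 scale beside 0.017 over all genes. The libraries of the regions did not overlap, with white matter lower, for 9 of 10 genes, against 19.5% of all genes. In terms of size, G0s2 was 16.2-fold lower, with a log2 fold change of -4.02 ± 0.47 (SE, 2 libraries a group), and Mmp9, the smallest of the 9, was 7.25-fold lower. Ngp stood at -3.83 ± 1.11, Lcn2 at -3.51 ± 0.72, Retnlg at -3.28 ± 0.72, Mmp8 at -3.26 ± 0.53, Cxcr2 at -3.21 ± 0.53, S100a8 at -3.17 ± 0.84 and S100a9 at -3.15 ± 0.73, all on the log2 scale. Csf3r differed by -0.26 ± 0.62, less than its error. These sizes moved with the white matter library used. Without the first 21-month white matter library the median of the 10 was -4.06, with Ngp at -5.98, and without the second it was -2.68, with Ngp at -3.00.

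In edgeR's quasi-likelihood fit of all 8 libraries, 0 of the 10 genes passed an adjusted p under 0.05 at 21 months, as did 0% of all genes. The smallest adjusted p in that edgeR fit was 0.72, for G0s2, whose unadjusted p was 4.44e-05. At an unadjusted p under 0.05, 9 of 10 were lower in white matter, against 1.18% of all genes. The number of calls differed between fits. With only the 4 libraries of 21 months in the edgeR fit, 5 of 10 genes passed lower, against 0.591% of all genes. These were Mmp8 (adjusted p = 0.00111), G0s2 (0.00168), Mmp9 (0.00182), Cxcr2 (0.00193) and Lcn2 (0.0116). Retnlg (adjusted p = 0.107), S100a9 (0.344), S100a8 (0.446) and Ngp (0.536) did not pass in that edgeR fit, nor did Csf3r (0.711). When the first 4-month white matter library was left out of the edgeR fit, Mmp8 and G0s2 passed, with adjusted p of 0.046 and 0.0213, against 0.0343% of all genes. Leaving out the second instead also gave calls for Mmp8 and G0s2, against 0.0224% of all genes. DESeq2 on all 8 libraries called 9 of 10 genes lower (0.22% of all genes), edgeR with no filter on low counts 9 (0.198%), and limma voom with sample quality weights 7 (0.259%), with Csf3r called by none of them.

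At 4 months the direction was the same, and the first white matter library bears on every value. The fold change was below 0 for 10 of 10 genes, as for 49.3% of all genes, with a median of -2.83 beside 0.011 over all genes. All 10 genes, Csf3r included, had white matter libraries below the grey matter libraries with no overlap, against 15.5% of all genes. Lcn2 showed the largest difference, at -3.43 ± 0.71 on the log2 scale, followed by Ngp at -3.30 ± 1.08 and Retnlg at -3.09 ± 0.71. G0s2 stood at -2.20 ± 0.42 and Csf3r at -1.16 ± 0.63. Without that library the differences of the 10 genes ran from -2.87 for Lcn2 to -0.50 for Csf3r, with a median of -2.48. Scaled to the homeostatic microglia genes, the median of the 10 was -1.34 beside 1.62 over all genes, Csf3r stood at 0.033, and 3 of 10 had an unadjusted p under 0.05, against 0.197% of all genes.

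In edgeR's fit of all 8 libraries, 0 of 10 genes passed at 4 months, as did 0% of all genes, with adjusted p of 0.479 for 9 of them and 0.653 for Csf3r. At an unadjusted p under 0.05, 9 of 10 were lower in white matter, against 2.33% of all genes. Without the first 4-month white matter library, 0 passed the adjusted threshold and 7 of 10 had an unadjusted p under 0.05, against 2.27% of all genes. Without the first 4-month grey matter library that count was also 7, against 1.01% of all genes, with a median of -2.26. When 4-month white matter was left with its first library only, the one that stood apart, the median of the 10 was -3.36. The differences then ran from -4.77 to -2.30 on the log2 scale. DESeq2 called 9 genes (0.348% of all genes) and edgeR without a filter on low counts 9 (0.35%). Limma voom with sample quality weights called 0, as did edgeR with only the 4-month libraries, and 0 of all genes passed in either.

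**Figure D2:**
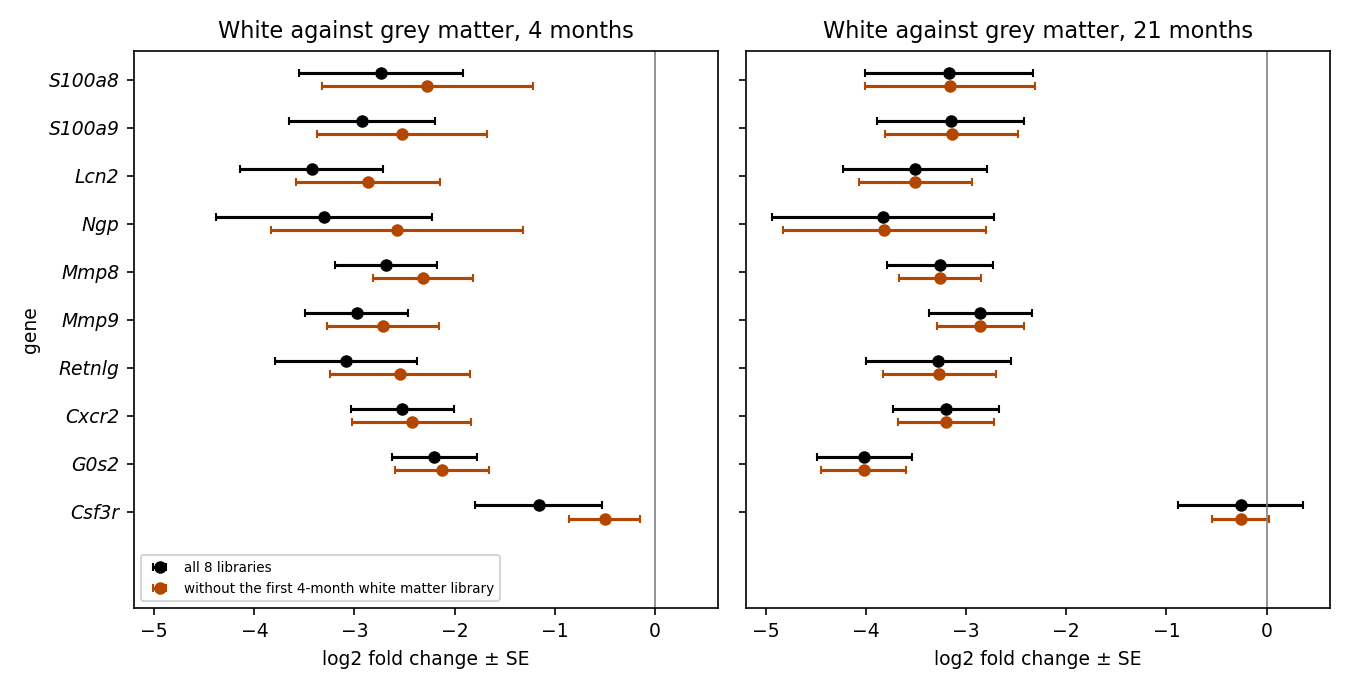
Log2 fold change of white against grey matter at 4 months (left) and 21 months (right) for each gene, with bars of 1 standard error from edgeR, in black for all 8 libraries and in orange without the first 4-month white matter library. The points of 9 genes lie between -4.02 and -2.12, and those of Csf3r lie nearest to 0 in both panels.

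Age was compared within each region. In white matter, 9 of 10 genes were below 0 at 21 against 4 months, as were 48.9% of all genes, with a median of -0.97 beside 0.019 over all genes. G0s2 differed by -2.04 ± 0.47 on the log2 scale (unadjusted p = 0.00297, adjusted p = 0.615, edgeR), and Cxcr2 by -1.22 ± 0.50 (unadjusted p = 0.0443, adjusted p = 0.615, edgeR). These were the 2 of 10 genes with an unadjusted p under 0.05 and a lower level, against 5.47% of all genes. The count was 7 of 10 when the first 21-month white matter library was left out (1.06% of all genes), with a median of -1.87. Without the second 21-month white matter library it was 1 of 10 (2.32% of all genes), with a median of -0.26. Scaled to the homeostatic microglia genes, it was 6 of 10 (17.6% of all genes), with a median of -1.77 beside -1.14 over all genes. The ages did not overlap, with 21 months lower, for Mmp8, Cxcr2 and G0s2, which is 3 of 10 against 15.4% of all genes. In the edgeR fit of all 8 libraries 0 of 10 passed, as did 0% of all genes. The other genes ranged from -1.29 for S100a8 to 0.70 for Csf3r. Without the first 4-month white matter library Csf3r stood at 0.05 and the other 9 genes between -2.11 and -0.60. Without the second, G0s2 passed lower (12.3% of all genes) and Csf3r passed higher (12.9%) in edgeR, at -1.94 and 1.89 on the log2 scale.

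In grey matter all 10 genes were below 0 at 21 against 4 months, as were 51.4% of all genes, by -0.86 for S100a8 to -0.20 for Csf3r. None of these differences passed in edgeR (0 of 10, and 0% of all genes; adjusted p = 1), and 0 had an unadjusted p under 0.05 with a lower level, against 0.283% of all genes. S100a8, Retnlg and G0s2 did not overlap between the ages, which is 3 of 10 against 17.3% of all genes. The 2 libraries of 4-month grey matter lay far apart. S100a9 was 981.8 ± 499 CPM (mean ± SD, n = 2) at 4 months and 627 ± 45.9 CPM at 21 months. With that group left with its second library, the median of the 10 differences was 0.025, and they ran from -0.35 for Retnlg to 0.13 for Csf3r. With that group left with its first library, the median was -0.96, beside -0.54 with all 8 libraries.

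The difference between the aging changes of the 2 regions was also tested. G0s2 had the largest, at -1.81 ± 0.61 on the log2 scale, meaning more negative in white matter (unadjusted p = 0.0188, adjusted p = 0.9999, edgeR). It was 1 of 10 genes with an unadjusted p under 0.05 in that direction, against 2.07% of all genes, and 0 of 10 passed in edgeR, as did 0% of all genes. The other 9 genes ranged from -0.68 for Cxcr2 to 0.90 for Csf3r with standard errors of 0.69 and 0.88. When white matter at 4 months was left with its first library, Csf3r passed in edgeR at 2.10, where 7.73% of all genes were called higher.

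Levels can be compared between genes only per length, so CPM was divided by the kilobases of the longest protein-coding transcript in GENCODE M21. In 21-month grey matter S100a9 was highest, at 1208 ± 88.5 CPM per kb (mean ± SD, n = 2), followed by Ngp at 493 ± 83.3, S100a8 at 432 ± 25.6, Lcn2 at 250.2 ± 32.0 and Csf3r at 197.1 ± 14.02. Of the neighbours in that order only Ngp and S100a8 overlapped between libraries. Mmp9 was lowest, at 15.2 ± 2.44 CPM per kb. In 21-month white matter the order changed at its top, where Csf3r stood at 164.8 ± 40.9 CPM per kb and S100a9 at 135.7 ± 104.6, and their libraries overlapped. Csf3r had rank 5 in grey matter at both ages. S100a9 also led in 4-month grey matter, at 1892 ± 962 CPM per kb, and in 4-month white matter, at 248.9 ± 105.4.

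The counts were also set beside those of the microglia markers in the same library. Per 100 counts of the 12 homeostatic microglia genes, the 9 genes other than Csf3r summed to 15.4 and 11.2 counts in 21-month grey matter and to 2.17 and 0.598 in 21-month white matter. At 4 months they summed to 19.8 and 11.4 in grey matter and to 6.66 and 3.66 in white matter. Csf3r stayed between 3.43 and 4.95 counts per 100 in all 8 libraries, including the library with few microglia counts, where it was 4.52. On this scale the 4-month white matter libraries did not overlap those of 21 months for the 9 genes, and both ages lay below grey matter. Csf3r had no such order, with 4.95 and 3.43 for white matter at 21 months, against 4.75 and 4.38 for grey matter.

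**Figure D3:**
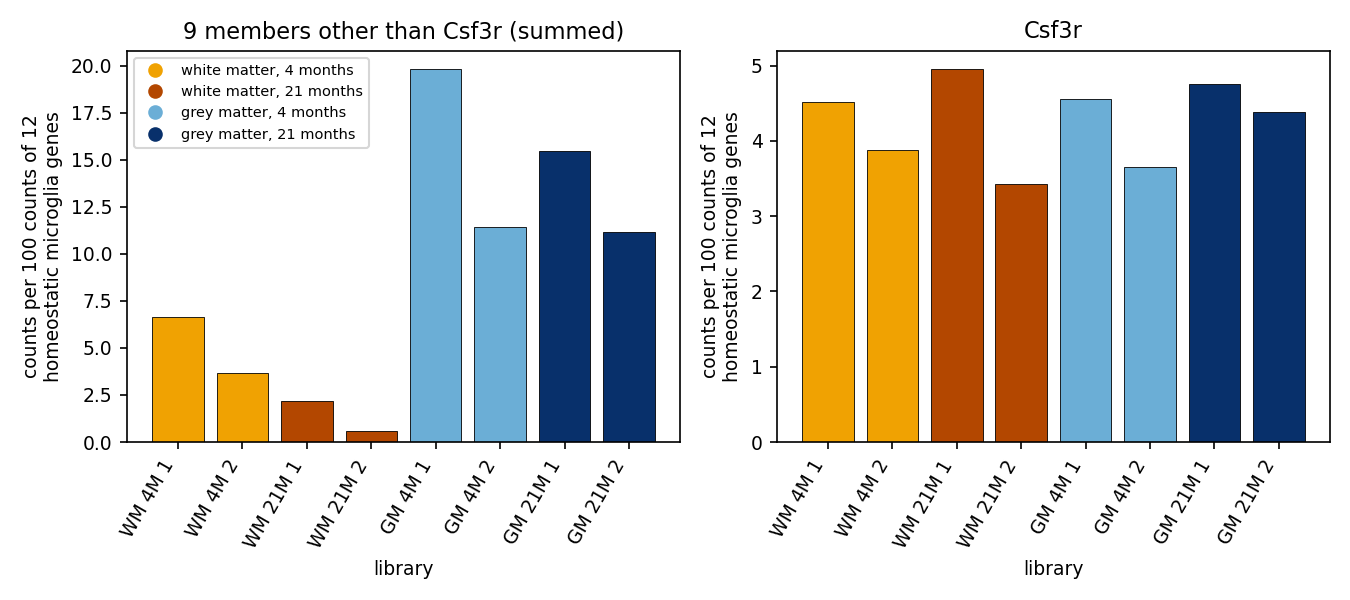
Summed counts of the 9 genes without Csf3r (left) and counts of Csf3r (right) per 100 summed counts of 12 homeostatic microglia genes, 1 bar per library, both axes starting at 0. The 9 genes run from 0.598 to 6.66 in white matter and from 11.2 to 19.8 in grey matter, while Csf3r runs from 3.43 to 4.95.

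Across the 8 libraries the 36 pairs among the 9 genes had Pearson correlations of log2 CPM from 0.889 to 0.995, and the 9 pairs with Csf3r from 0.363 to 0.663. Without the first 4-month white matter library these ranges were 0.911 to 0.998 and 0.592 to 0.809. These are descriptions over libraries that share their groups and scaling. The label of mature neutrophil genes thus described 9 genes that varied together from library to library and 1 that did so less.

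The proportions among the 9 genes were compared within libraries. Ngp counts made up 46.8%, 47.8%, 50.6% and 47.2% of Ngp plus S100a9 in the 4 grey matter libraries. In white matter the share was 46.2% in the second 4-month library (95% Wilson interval 43.5% to 49.0%) and 40.8% in the first 21-month library (37.4% to 44.3%). It was lower in the remaining white matter libraries, at 26.5% (22.1% to 31.5%) in the first 4-month and 23.2% (17.5% to 30.2%) in the second 21-month library, which held the fewest S100a9 counts. For Cxcr2 of Cxcr2 plus S100a9, these libraries were instead the highest, at 21.7% (17.5% to 26.6%) and 18.4% (13.1% to 25.1%), against 12.4% to 15.6% in the other 6. Retnlg made up 10.1% (9.50% to 10.8%) of Retnlg plus S100a9 in the first 4-month grey matter library and 13.6% (12.6% to 14.7%) in the second, so its proportion differed within that group. The S100a8 share of calprotectin counts was 28.9% and 31.5% in white matter at 4 months and 26.3% and 19.4% at 21 months. For grey matter it was 28.8% and 26.0% at 4 months and 24.9% and 25.3% at 21 months. The 21-month values were below the 4-month values in both regions, but not all intervals were apart. Those of the second grey matter libraries overlapped, at 24.8% to 27.3% and 23.7% to 26.9%. The interval of the first 4-month grey matter library, 27.9% to 29.6%, lay above both at 21 months. In white matter only the intervals of the second libraries were apart, and the 19.4% rested on 31 S100a8 counts. The intervals cover counting error only.

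**Figure D4:**
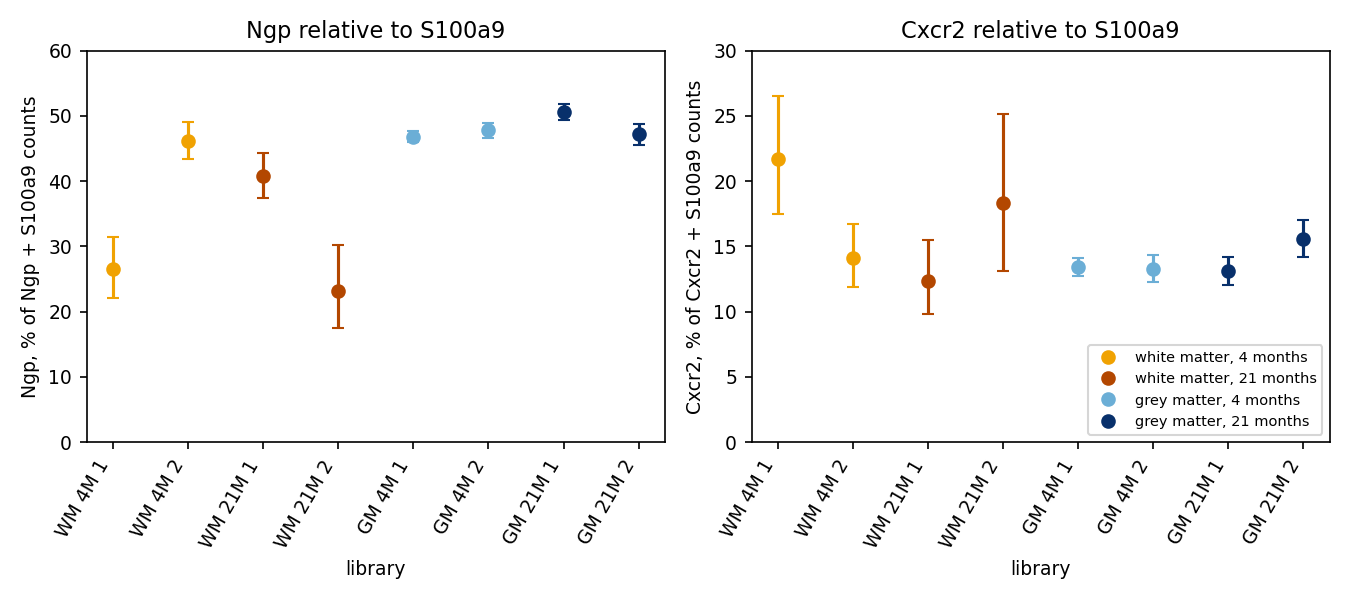
Share of the counts of a gene pair that fell on the first-named gene, in each of the 8 libraries, with 95% Wilson intervals for counting error. The Ngp share of Ngp plus S100a9 lies at 46.8% to 50.6% in grey matter and at 23.2% to 46.2% in white matter.

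Other neutrophil genes, grouped by role, lay in the same direction as the 9 genes. Of 8 further genes of specific and gelatinase granules, 8 were below 0 in white against grey matter at 21 months and 8 at 4 months, with medians of -3.16 and -2.91 on the log2 scale. Without the first 4-month white matter library the 4-month median was -2.27. The most abundant were Ltf (lactoferrin), Chil3, Camp (cathelicidin) and Pglyrp1 (a peptidoglycan recognition protein). Ltf had 895 and 406 counts in 21-month grey matter and 81 and 8 in 21-month white matter. In the edgeR fit of all 8 libraries 0 of the 8 passed. With the 21-month libraries alone 3 of 8 passed lower in edgeR, namely Cd177, Hp and Pglyrp1, against 0.591% of all genes.

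Of 23 further genes of mature neutrophils, 20 passed the filter on low counts, and 20 of 20 were below 0 at each age, with medians of -2.68 at 21 months and -2.28 at 4 months. Scaled to the microglia genes, 16 of 20 were below 0 at 4 months. Without the first 4-month white matter library the 4-month median was -2.11. Ly6g, the surface marker used to define mouse neutrophils, had 33 and 25 counts in 21-month grey matter and 4 and 0 in 21-month white matter. At 4 months Ly6g had 86 and 37 counts in grey matter and 0 and 15 in white matter. Mxd1, Hdc and Trem1 were among the most abundant genes of this list. With all 8 libraries 0 of the 20 passed in edgeR. With the 21-month libraries alone 7 of the 19 genes then tested passed lower, against 0.591% of all genes. These were Stfa2l1, Asprv1, Slpi, Mxd1, Clec4e (a receptor for mycobacterial glycolipid), Fpr1 (a formyl peptide receptor) and Lrg1. Genes of earlier granulocyte stages were read as well. Of 9 such genes 6 passed the filter, and 6 of 6 were below 0 at each age. Mpo, myeloperoxidase of primary granules, had 193 and 266 counts in 21-month grey matter and 18 and 2 in 21-month white matter. Elane, neutrophil elastase, had 60 and 95 counts against 3 and 2. In the edgeR fit of the 21-month libraries alone, Elane and Fcnb passed lower, 2 of the 4 genes then tested, against 0.591% of all genes.

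The ligands, receptors, inhibitors and substrates of the 10 proteins were read in the same libraries. Of 14 such genes 10 were tested, and 3 were below 0 in white against grey matter at 21 months and 8 at 4 months, with medians of 0.54 and -0.47. Scaled to the microglia genes, 2 were below 0 at either age. None passed in edgeR with all 8 libraries (0 of 10 at either age). Cxcl2, a ligand of CXCR2, had 323 and 160 counts in 21-month grey matter and 364 and 281 in 21-month white matter. At 4 months Cxcl2 lay the other way, with 559 and 352 counts in grey matter and 41 and 228 in white matter. Its log2 difference was -1.16, from 97.5 and 64.4 CPM in grey and 14.9 and 57.2 CPM in white matter. The 14.9 CPM came from the first 4-month white matter library. Without that library, 6 of the 10 tested genes of this list were below 0 at 4 months, with a median of -0.30. Cxcl5, another CXCR2 ligand, had a count of 0 in all 8 libraries, and Csf3, the ligand of the Csf3r product, had 1 count in a single 21-month grey matter library. Timp2, Tlr4, Pnpla2 (the lipase ATGL, target of G0S2) and Timp3 were the most abundant of the list, and the differences of Pnpla2 were -0.09 at 21 months and -0.20 at 4 months. Of 8 granulocyte transcription factors, Cebpa, Spi1 (PU.1) and Runx1, which microglia also express, differed by -0.24 to 0.25 at 21 months. At 4 months the differences were -1.29 for Spi1, -1.03 for Cebpa and -0.35 for Runx1. In the first and second 4-month white matter library Spi1 was at 69.4 and 174.3 CPM, Cebpa at 30.5 and 123.4 and Runx1 at 44.3 and 363.7. The 4-month grey matter libraries gave 375.7 and 220.9 CPM for Spi1, 185.9 and 128.9 for Cebpa and 196.7 and 322.3 for Runx1. Without the first 4-month white matter library, 5 of the 7 factors then tested were below 0, with a median of -0.33. Of the 6 tested factors 4 were below 0 at 21 months and 6 at 4 months, or 3 and 1 when scaled to the microglia genes, and 0 passed in edgeR with all 8 libraries. Cebpe, a factor of late granulocyte development, had 10 and 3 counts in grey matter at 21 months, 21 and 18 at 4 months, and 0 in all 4 white matter libraries.

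By likeness of pattern, the 10 genes outside the set that followed it most closely over the 8 libraries, of 9007 genes of sufficient count, had correlations of 0.975 to 0.992 with the mean standardised level of the 10. They included Anxa1 (annexin A1), Hp (haptoglobin), Mpo, Ltf, Ifitm6, Hdc, Cd177, Fcnb and Camp. Of the 10, 9 were already on the lists of neutrophil, granulocyte precursor or monocyte genes, and Anxa1 was not. Without the first 4-month white matter library 5 of the 10 stayed in the top 10. Anxa1 was read at 47.7 and 43.0 CPM in 21-month grey matter and at 4.26 and 2.48 CPM in 21-month white matter, a difference of -3.74 on the log2 scale.

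Markers of other blood cells were summed in the same libraries, and they did not all follow the order of the neutrophil genes. The 10 monocyte markers, of which 1 is shared with the neutrophil list, summed to 336 to 557 CPM in 21-month grey matter and 186.0 to 215.2 CPM in 21-month white matter. At 4 months they summed to 316 to 471 CPM in grey and 47.2 to 132.5 CPM in white matter. At each age 10 of 10 were below 0, or 9 of 10 when scaled to the microglia genes. The medians were -2.04 at 21 months and -2.13 at 4 months, or -1.81 at 4 months without the first 4-month white matter library. With the 21-month libraries alone Ly6c2, Plac8, Vcan, F13a1 and Ifitm6 passed lower in edgeR, 5 of 10 against 0.591% of all genes. The 8 red blood cell markers summed to 26116 and 1200 CPM in 4-month grey matter, where the first library was also the highest for each of the 10 neutrophil genes. In 21-month grey matter they summed to 2647 and 720 CPM, and in white matter to 6946 and 602 CPM at 4 months and 736 and 185.5 CPM at 21 months, so the regions overlapped at both ages. The 6 platelet markers summed to 25.4 to 71.2 CPM in grey matter and 7.995 to 15.1 CPM in white matter. The 7 eosinophil markers summed to 24.5 to 64.2 CPM in grey and 3.63 to 38.6 CPM in white matter. Their directions were mixed at 21 months, with 4 of 5 tested below 0 and Siglecf above 0. Siglecf was read at 34.5 and 24.1 CPM in 21-month white matter, against 11.1 and 20.9 CPM in grey matter. Prg2 was read at 0 and 0.248 CPM, against 16.4 and 27.6 CPM in grey matter. With the 21-month libraries alone Prg2 passed lower in edgeR, 1 of the 3 eosinophil markers then tested, against 0.591% of all genes. The 7 B cell markers, of which Ms4a1 was at 0 in both libraries of each white matter group, summed to 417 to 539 CPM in grey and 97.8 to 369 CPM in white matter. The lowest white matter sums of the monocyte, platelet, eosinophil and B cell markers all came from the first 4-month white matter library. The 7 T and NK cell markers lay the other way at 21 months, at 13.01 and 16.4 CPM in white matter against 8.72 and 6.98 CPM in grey matter.

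Markers of brain and vessel cells were summed in the same way. The 8 border macrophage markers summed to 475 to 687 CPM in grey and 51.2 to 434 CPM in white matter. The 7 astrocyte markers summed to 262.5 to 287 CPM in grey and 96.7 to 224.2 CPM in white matter, again with no overlap. The 7 endothelial markers overlapped, at 39.8 to 90.7 CPM in grey and 6.90 to 163.6 CPM in white matter. The lowest white matter sums of the border macrophage, astrocyte and endothelial markers came from the first 4-month white matter library. The 6 choroid plexus markers were uneven, at 390.3 and 11831 CPM in 21-month white matter, 5398 and 7135 CPM in 4-month white matter and 30.7 to 469 CPM in grey matter. The part of these other cells in the differences of the 10 genes was not tested.

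**Figure D5:**
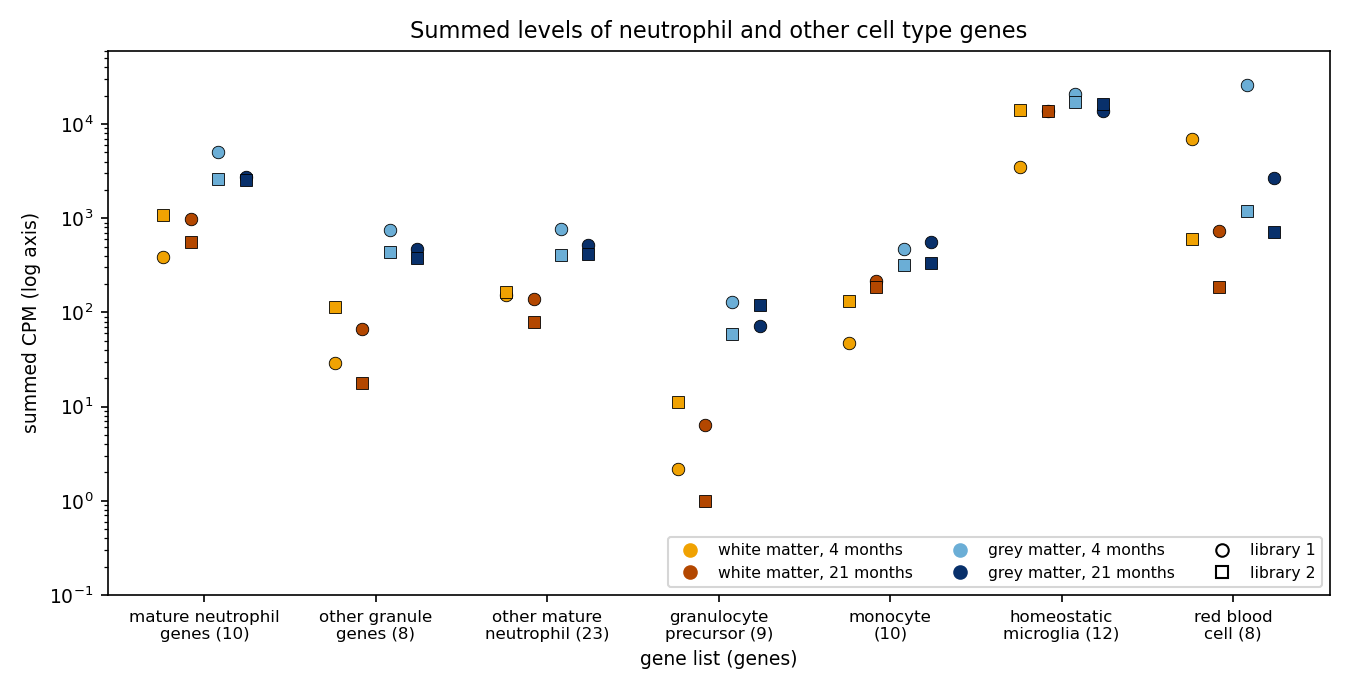
Summed CPM of marker lists (logarithmic axis) in the 8 libraries, coloured by group. The 4 grey matter libraries lie above the 4 white matter libraries for the further neutrophil granule genes, at 381 to 757 against 17.9 to 113.6 CPM, and for monocyte markers, at 316 to 557 against 47.2 to 215.2 CPM.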

How the data were processed

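PolyA RNA of CD11b-selected cells from 8 mouse brain libraries was sequenced on an Ion Proton, per the labels' protocols. The authors deposited estimated counts per gene, which deviated from whole numbers by over 1e-06 in 15.9% to 17.8% of the values above 0 per library. These expected counts were rounded. Partek and DESeq2 are named per the submitters' processing notes, and what aligner, build, annotation or strand setting they used is not given in the sources used here. A deposited normalised signal for 18448 genes, which the authors scaled by 1 factor per library, served in 1 alternative, on log2(value + 1). Totals ran from 3273258 to 6315782 counts.

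Genes were kept by filterByExpr of edgeR 4.0.16 in R 4.3.3 with TMM scaling. A robust quasi-likelihood model with 1 mean per group was fitted to all 8 libraries, leaving 4 residual degrees of freedom and Benjamini-Hochberg adjustment over 16237 genes at 0.05. Standard errors came from the F statistic. The smallest exact two-sided permutation p for 2 libraries against 2 is 0.333. The fit was tested on simulated data. Alternatives used DESeq2 1.42.0, limma 3.58.1, other scalings, filters, library sets and replicate blocks. The text names all 10 genes, the 4 most abundant or any called genes of lists, and the 10 nearest in pattern among genes whose highest group averaged 50 counts or more. Ly6g, Cxcl2, Cxcl5, Csf3, Cebpe and Ms4a1 were named after their values were seen. A gene that this rule names is not reported here. Members and lists were chosen with earlier results of these data known.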

Additional observations from a re-analysis of the deposited data

How the results depend on the processing

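For white against grey matter at 21 months, 0 of the 10 genes passed with all 8 libraries, 9 with DESeq2, 7 with limma voom and quality weights, 9 with no filter on low counts, 5 with the 21-month libraries alone, and 0 to 2 when each library was left out. Of all genes, 0% passed at 21 months with all 8 libraries. The shares of all genes passing lower were 0.22% with DESeq2 and 0.259% with limma voom and quality weights. They were 0.198% with no filter and 0.591% with the 21-month libraries alone. At 4 months 0 passed with all 8 libraries, 9 passed lower with DESeq2 (0.348% of all genes) and 9 with no filter (0.35%). Both limma voom with quality weights and the 4-month libraries alone gave 0. Leaving out each library in turn placed the 4-month median of the 10 between -3.36 and -2.26. The number of calls also moved with the library left out, most at 4 months and not at all for aging in grey matter. Each such fit left 1 library in a group, so these counts are not listed in this section. The cause was not tested. All region differences kept their direction except Csf3r at 4 months, 0.033 when scaled to the microglia genes. That scaling set the median of all genes at 1.62 at 4 months, 0.144 at 21 months, -1.14 for aging in white matter, 0.318 in grey matter and -1.46 for their difference. Under it, Csf3r changed sign for aging in white matter (-0.0016), in grey matter (0.15) and for the difference (-0.16), as did G0s2 in grey matter (0.12) and Mmp9 for the difference (-1.34). Mmp9 also did so for the difference with voom (-0.023), the deposited normalised values (-0.022), the replicate block (-0.026) and the block within age (-0.0090). The replicate block and the block within age gave 0 calls in every comparison. Deviations of same-numbered white and grey matter libraries correlated at 0.415 at 4 months and at 0.056 at 21 months. Between the ages they correlated at -0.025 in white and -0.098 in grey matter, which cannot bear on pairing within an age. The labels do not say whether the numbers mark an animal, so the numbers were not taken to pair the libraries.
Leaving out each library in turn changed the sign of some age values, by these ranges on the log2 scale. In white matter they were -1.47 to 0.14 for Lcn2, -0.86 to 0.016 for Mmp9, -3.21 to 0.40 for Ngp and -2.19 to 0.036 for Retnlg. In grey matter they were -0.48 to 0.13 for Csf3r, -0.98 to 0.11 for Cxcr2, -1.19 to 0.12 for Lcn2, -0.91 to 0.12 for Mmp9 and -0.96 to 0.060 for Ngp. For the difference they were -0.87 to 0.82 for Lcn2, -0.47 to 0.56 for Mmp9, -2.69 to 0.95 for Ngp, -1.52 to 0.72 for Retnlg, -2.06 to 0.31 for S100a8 and -1.39 to 0.42 for S100a9. A group reduced to 1 library was assumed to vary like the others. Of the remaining values of single genes, 818 kept their direction and side of the threshold and 63 passed where they had not. G0s2 at 21 months rested on 4 and 5 counts in white matter.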
